A study of Mus musculus with 116 samples.

Results

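The 10 genes described here belong to 2 families of mostly calcium-dependent proteins, some of which work in pairs at cell membranes. S100a4, S100a6, S100a10, S100a11 and S100a13 encode S100 proteins, and Anxa1, Anxa2, Anxa3, Anxa5 and Anxa6 encode annexins. They were listed by name, with earlier results of these data known, and all 10 were found among the 40202 gene symbols of the count files. RNA was read by full-length cDNA sequencing in 116 libraries of 2 mouse cell lines, each made by nanoSPLITS, which divides the lysate of 1 or a few cells in a nanodroplet between RNA and protein measurement. The labels give C10 as alveolar type II epithelium, the lung cell type that secretes surfactant, and SVEC as endothelium, the inner lining of vessels. An input series of C10 had 8 libraries of 1 cell, 6 of 3 cells and 6 of 10 cells, and a separate set had 48 single cells of each line. Both lines were in plain culture, untreated. Whether libraries of a group came from separate cultures is not stated, so p-values measure the spread between these libraries, which may be technical.

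S100 proteins are small and bind calcium through EF-hand motifs. Calcium opens a surface on an S100 dimer that grips a partner, which for several members is the N-terminal tail of an annexin. Annexins bind acidic phospholipids when calcium rises, and the 2 families act together in membrane repair, exocytosis and the linking of membranes to actin. S100a10 is an exception, since its product has lost calcium binding and stays joined to the product of Anxa2, while the product of S100a11 binds that of Anxa1. Lung epithelium and endothelium are both known to make several of these proteins.

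Because S100a4, S100a6 and S100a11 varied together between single cells and stood higher in C10 than in SVEC, while Anxa2 did not vary with them and did not pass that test, the DNA just before their start sites is shown for comparison. The 250 bases upstream of the start, on the gene's strand, come from the RefSeq promoter table of GRCm38.p6, which held 7 of the 10 genes. Capitals mark matches on either strand to TGANTCA, known as the AP-1 motif, to TATAAA, the core of a TATA box, to the CCAAT box by its own letters, and to GGGCGG, known as a GC box.
S100a4, chr3:90603520-90603769, plus strand: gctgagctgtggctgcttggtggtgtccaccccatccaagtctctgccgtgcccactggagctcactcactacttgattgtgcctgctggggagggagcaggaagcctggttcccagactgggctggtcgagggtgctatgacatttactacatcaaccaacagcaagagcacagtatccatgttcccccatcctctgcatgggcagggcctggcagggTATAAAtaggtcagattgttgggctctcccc
S100a6, chr3:90612644-90612893, plus strand: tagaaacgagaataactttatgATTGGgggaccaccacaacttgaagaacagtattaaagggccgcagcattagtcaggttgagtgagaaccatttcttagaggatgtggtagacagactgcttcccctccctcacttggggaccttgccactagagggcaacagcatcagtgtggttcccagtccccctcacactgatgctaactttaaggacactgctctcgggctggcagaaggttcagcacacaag
S100a11, chr3:93520246-93520495, plus strand: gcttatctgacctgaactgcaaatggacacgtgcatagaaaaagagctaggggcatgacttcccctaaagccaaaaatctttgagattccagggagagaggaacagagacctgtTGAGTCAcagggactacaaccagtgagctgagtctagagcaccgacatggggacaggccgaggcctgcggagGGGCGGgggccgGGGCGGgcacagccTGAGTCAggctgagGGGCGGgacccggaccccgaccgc
Anxa2, chr9:69453433-69453682, plus strand: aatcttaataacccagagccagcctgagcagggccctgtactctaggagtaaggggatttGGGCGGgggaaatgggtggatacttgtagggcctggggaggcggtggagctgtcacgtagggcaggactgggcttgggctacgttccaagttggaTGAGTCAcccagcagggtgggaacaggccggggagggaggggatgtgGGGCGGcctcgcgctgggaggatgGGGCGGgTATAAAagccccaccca
All 3 S100 promoters lie on chromosome 3, where many S100 genes are clustered. S100a4 held a TATA box 31 bases before the start and no other match. S100a6 held only a CCAAT match on the reverse strand, 228 bases upstream. S100a11 and Anxa2 were alike in content: S100a11 held 2 AP-1 matches (136 and 38 bases upstream) and 3 GC boxes, and Anxa2 held 1 AP-1 match (95 bases upstream), 3 GC boxes and a TATA box 17 bases upstream. Among 32851 promoters of that length, 6.749% held an AP-1 match, 12.368% a TATA box, 33.85% CCAAT and 32.742% a GC box. No motif was found in all 3 of the S100 promoters, and a match is a run of letters, not a bound site.

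Single-cell libraries with under 1000 counts were left out, which removed 2 of C10 and left 46. Those kept held 83188 to 5911755 counts in C10 and 5122 to 2831907 in SVEC, with medians of about 1882000 and 434900. Libraries of the input series held 430798 to 15385625 counts. The defining genes of the labelled cell types were mostly absent from the single cells. Krt8, a keratin gene, and 4 surfactant genes (Sftpa1, Sftpb, Sftpc, Sftpd) had no count in any single cell, and the endothelial gene Cdh5 was detected in 1 library of each line. Of the endothelial genes, 3 were detected often enough to test, as was the alveolar type II gene Abca3. In the edgeR test given below, Flt1 was higher in SVEC (log2 fold change of C10 over SVEC -3.96, adjusted p = 7.43e-05). Tek was higher in C10 (2.08, adjusted p = 0.00143), and Pecam1 and Abca3 were not called (adjusted p = 0.789 and 0.424, all edgeR). Cdh1, for epithelial cadherin, was detected in 24 of 46 C10 and 1 of 48 SVEC libraries. Summed levels of 6 epithelial, 7 alveolar type II, 9 endothelial and 6 leukocyte markers had medians of 0.596 CPM or less in both lines. Transcripts typical of fibroblasts were present in both: Dcn in 46 of 46 C10 and 31 of 48 SVEC libraries and Col1a1 in 46 and 47. The sum of 6 fibroblast markers, of which 5 had a count in each line and Lum had none, ran from 475.6 through 2392 to 15370 CPM in C10 and from 0 through 1217 to 11330 CPM in SVEC. In the input series of C10, 4 of the 6 epithelial genes (Krt8, Cdh1, Epcam and Krt19) were detected often enough to test. So were 2 of the 7 alveolar type II genes (Abca3 and Lamp3), 5 of the 9 endothelial and 2 of the 6 leukocyte genes. The lines are therefore called by their labels only. The labels name no preparation batch, so line and preparation cannot be told apart.

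Several of the 10 genes were among the most abundant transcripts of these cells. By mean scaled count (CPM, the count scaled to a library of 1000000), Anxa1 ranked 14, Anxa2 25, Anxa3 28, S100a4 36 and S100a11 47 of 40202 genes in C10 single cells. In SVEC, Anxa1 ranked 17 and Anxa2 18. Together the 10 genes took a median of 1.71% of a C10 library's counts (range 0.6795% to 2.251%, n = 46) and 1.285% of an SVEC library's (0.1897% to 1.957%, n = 48).

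Since a long transcript yields more fragments, the genes were ranked against each other by CPM per kilobase of exon. In C10 single cells the order of median levels began with S100a4 (3527 CPM per kilobase), S100a11 (3363) and Anxa1 (2159), and ended with Anxa5 (495.8), S100a13 (91.48) and Anxa6 (56.28). Within a library, S100a4 exceeded S100a11 in 31 of 46 cells, and Anxa2 (1687) exceeded S100a6 (1683) in 27 of 46, so these neighbours did not keep a firm order. S100a11 exceeded Anxa1 in 40 of 46 cells, and S100a6 exceeded S100a10 (1017) in 42 of 46. In SVEC the order began with S100a11 (2270), Anxa2 (1864) and S100a4 (1832). Anxa2 was above S100a4 in 23 of 48 SVEC cells, and Anxa5 (789.9) was above Anxa3 (403.1) in 38 of 48. That last order was the opposite of C10, where Anxa3 (932.4) exceeded Anxa5 in 41 of 46 cells. S100a13 and Anxa6 were lowest per kilobase in both lines.

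**Figure D1:**
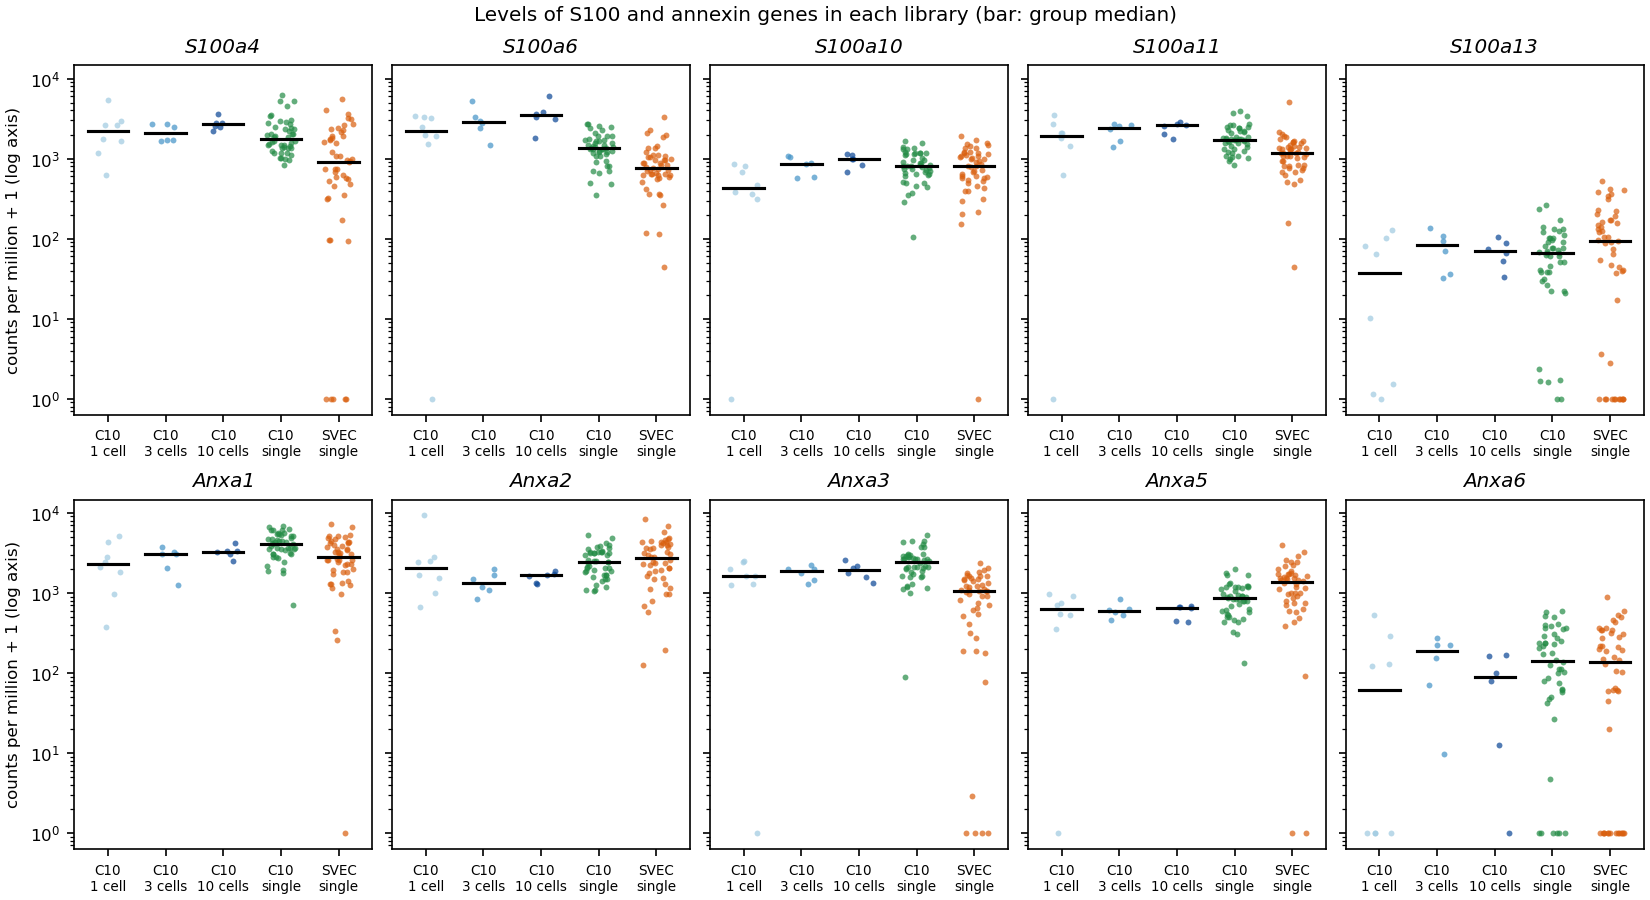
Level of each gene in every library, as CPM + 1 on a log axis, by library group. Each point is a library and each bar the group median. Points at the bottom are libraries with no count, such as the 5 SVEC libraries without S100a4 and the 14 without Anxa6.

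The single cells of the 2 lines were compared to ask which of these genes distinguish C10 from SVEC. S100a4, S100a6, S100a11, Anxa1 and Anxa3 were higher in C10, by 1.73-fold for Anxa1 to 3.29-fold for Anxa3, and none of the 10 was called higher in SVEC. S100a10, S100a13, Anxa2, Anxa5 and Anxa6 did not pass the test. Calls are adjusted p-values under 0.05 from edgeR's quasi-likelihood test over 9303 genes, with TMM scaling. Of all genes tested, 14.4% were called in favour of C10, against which 5 of the 10 stand, and 4.48% in favour of SVEC, against which 0 of the 10 stand. Under TMM the median gene was itself 0.35 higher in C10 on the log2 scale, and the median of the 10 genes was 0.61. With library totals alone as the scaling, the median gene stood at -0.00233, the 10 genes at 0.23, and 3 of them were called higher in C10 (S100a6, S100a11 and Anxa3) and 1 lower (Anxa5). That scaling also moved the split over all genes, from 76.2% of calls higher in C10 to 57.9%. On simulated counts edgeR called more unchanged genes than its threshold allows when sparsely detected genes were included. The simulation limited to widely detected genes also planted smaller changes, so sparse detection was not separated from the size of change. Results for genes found in at least 90% of a line's libraries are given too. There, 9 of the 10 genes were tested and S100a4, S100a6, S100a11 and Anxa3 were called higher in C10 and Anxa5 lower, against 19.7% and 6.99% of all such genes. Of the 1832 genes in this set, 1821 passed the filter in C10 and 448 in SVEC, whose libraries were shallower. S100a4 passed it only through C10, where it is high.

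Among the S100 genes, S100a6 and S100a11 were called under all 10 alternatives tried. S100a6 encodes calcyclin, which binds a scaffold of ubiquitin ligases. Its level ran from 350.9 through a median of 1362 to 2741 CPM in C10, and from 43.72 through 767.7 to 3278 CPM in SVEC. The groups overlapped, but 40 of 46 C10 cells lay above the SVEC median and only 7 of 48 SVEC cells lay above the C10 median. The log2 fold change was 1.09 (SE 0.173, adjusted p = 2.97e-07, edgeR). S100a11, the partner of Anxa1, ran from 834.7 through 1719 to 3955 CPM in C10 and from 43.72 through 1160 to 5159 CPM in SVEC. Here 39 of 46 C10 cells were above the SVEC median, and the log2 fold change was 1.03 (SE 0.147, adjusted p = 1.3e-08, edgeR). Its transcript has 5 processed pseudogenes at least 90% identical over part of their length. Of these only Gm12854 is listed in the count files, with no count in any library. How the authors' counting treated reads that fit several places is not known, so the level of S100a11 is uncertain.

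S100a4, whose product binds nonmuscle myosin and is tied to cell motility, differed most in its spread. All 46 C10 cells held it, at 826.3 to 6283 CPM with a median of 1756. In SVEC the median was 912.3 and the highest 5512 CPM, and 5 of 48 cells had no count. Of those 5, 3 had over 100000 counts, and at their median total of 166762 a count of 0 allows up to 17.99 CPM. Thus 45 of 46 C10 cells were above the SVEC median while 14 of 48 SVEC cells were above the C10 median. The log2 fold change was 1.1 (SE 0.309, adjusted p = 0.00483, edgeR). It missed the threshold with library totals alone (0.73, adjusted p = 0.0912), with genes detected as a covariate (0.86, adjusted p = 0.1) and after thinning libraries to 130000 counts (0.795, adjusted p = 0.063, all edgeR). S100a4 shares 302 exon bases with Gm42674 on the same strand in GENCODE, a gene not listed in the count files. S100a4 is also known as a fibroblast-associated transcript, and among the fibroblast markers 2 of 3 tested (Dcn and Col1a1) were higher in C10 with TMM and none with library totals alone. Their part in the S100a4 result was not tested.

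S100a10 did not pass the test between the lines. It had medians of 815.5 CPM in C10 (102.9 to 1682) and 810.7 in SVEC (0 to 1928). C10 cells lay above the SVEC median in 25 of 46 cases. The log2 fold change of 0.41 (SE 0.186, adjusted p = 0.116, edgeR) had a 95% interval of 0.0473 to 0.778. It passed the threshold under 5 of 10 alternatives (adjusted p from 0.0117 to 0.991, edgeR, limma or DESeq2). S100a13, which assists the release of a fibroblast growth factor lacking a signal peptide, was the rarest S100 member. It had medians of 65.41 CPM in C10 (0 to 259.2, detected in 44 of 46) and 92.09 in SVEC (0 to 531.9, 37 of 48). Its log2 fold change was -0.47 with an interval of -1.36 to 0.415 (adjusted p = 0.543, edgeR).

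Anxa3 showed the largest difference of the 10 genes. It encodes an annexin first described as an inhibitor of phospholipase activity. C10 cells ran from 87.08 through 2452 to 5233 CPM and SVEC cells from 0 through 1060 to 2393 CPM. Not one of 48 SVEC cells reached the C10 median, and 44 of 46 C10 cells were above the SVEC median. The log2 fold change was 1.72 (SE 0.275, adjusted p = 3.64e-07, edgeR), and it was called under all 10 alternatives, at 1.28 to 2.26. No count was found in 4 SVEC libraries, of which 2 had over 100000 counts.

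Anxa1, whose product damps inflammation through formyl peptide receptors, was the most abundant of the 10 in CPM in both lines. C10 cells ran from 700.1 through 4086 to 6864 CPM and SVEC cells from 0 through 2807 to 7163 CPM. C10 was above the SVEC median in 37 of 46 cells, and the log2 fold change was 0.79 (SE 0.191, adjusted p = 0.000897, edgeR). This call did not hold with library totals alone (0.43, adjusted p = 0.0807), among genes found in at least 90% of a line's libraries (0.42, adjusted p = 0.0893), with genes detected as a covariate (0.38, adjusted p = 0.293) or after thinning (0.43, adjusted p = 0.0529, all edgeR).

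Anxa2, Anxa5 and Anxa6 did not separate the lines in the edgeR test with TMM. Anxa2, which links membranes to actin and serves as a surface site for plasminogen activation, had medians of 2441 CPM in C10 (1070 to 5219) and 2697 in SVEC (125.1 to 8347). Its log2 fold change was 0.19 (interval -0.173 to 0.557, adjusted p = 0.55, edgeR), and its sign changed under 4 of 10 alternatives. Anxa5, used as a probe for phosphatidylserine on dying cells, ran from 132.2 through 858.3 to 1986 CPM in C10 and from 0 through 1367 to 3957 CPM in SVEC. Only 4 of 46 C10 cells lay above the SVEC median, and 35 of 48 SVEC cells lay above the C10 median. Relative to TMM the log2 fold change was -0.21 (interval -0.638 to 0.227, adjusted p = 0.601), relative to library totals -0.64 (adjusted p = 0.0257), and among genes found in at least 90% of a line's libraries -0.57 (adjusted p = 0.0322, all edgeR). Anxa5 was called lower in C10 under those 2 of the 10 alternatives and not under the other 8. Anxa6, an annexin with a doubled core, had medians of 140.1 and 136 CPM and was detected in 40 of 46 and 34 of 48 libraries (log2 fold change 0.42, interval -0.548 to 1.39, adjusted p = 0.641, edgeR).

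**Figure D2:**
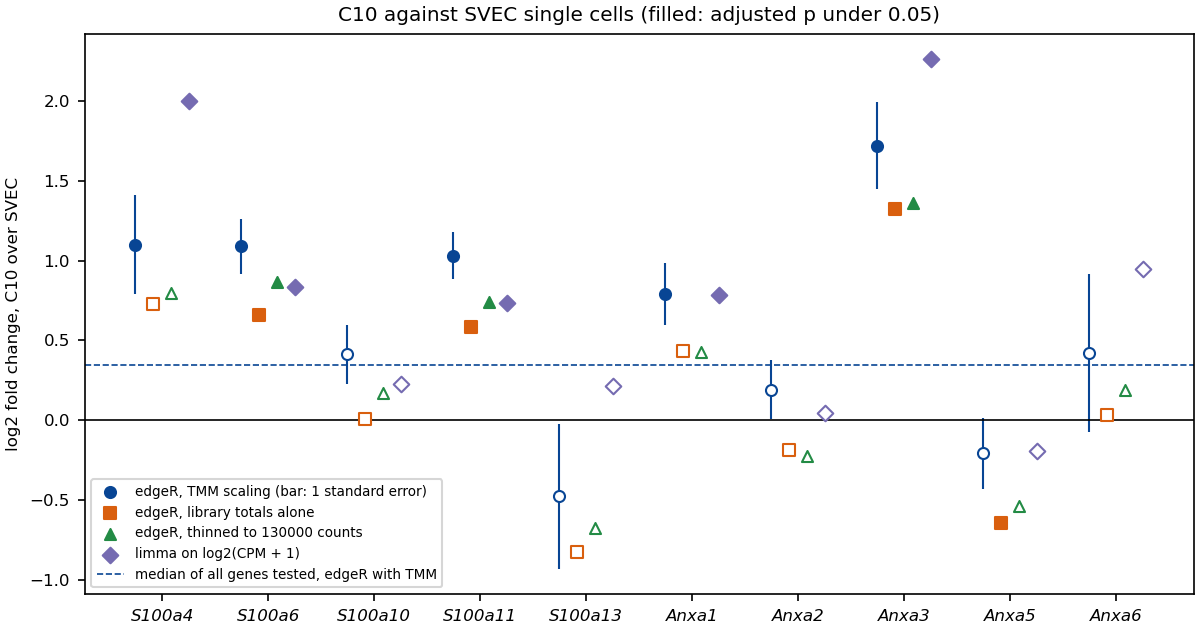
Log2 fold change of C10 over SVEC single cells for each gene under 4 settings, with filled symbols for adjusted p under 0.05 and bars of 1 standard error on the TMM values. The dashed line is the median of all genes tested under TMM. S100a6, S100a11 and Anxa3 are filled under all 4 settings, and Anxa5 lies below 0 in each but is filled only with library totals alone.

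Binding partners were also compared within each library, as the log2 ratio of their CPM + 1, which removes the library's scaling. For S100a10 over Anxa2 the mean was -1.6 ± 0.953 over the 46 C10 cells and -1.78 ± 1.85 over the 48 SVEC cells (SD). In C10 it ran from -4.65 through -1.61 to 0.245, and in SVEC from -9.93 through -1.66 to 2.8, the lowest SVEC value being a library with no S100a10 count. The difference of 0.185 was within the spread (two-sided permutation test, 100000 resamples, p = 0.562, adjusted p = 0.868). Without that library the difference was 0.0119 (n = 46 and 47). The ratio of S100a11 to Anxa1 averaged -1.13 ± 0.705 over C10 cells and -1.08 ± 1.56 over SVEC cells (SD, n = 46 and 48). It ran from -2.32 through -1.24 to 0.523 in C10 and from -2.9 through -1.26 to 7.29 in SVEC, the highest SVEC value being the library with no Anxa1 count. The difference of -0.0493 was also within the spread (permutation test, p = 0.868, adjusted p = 0.868 over the 2 ratios). Without that library it turned to 0.129 (permutation test, p = 0.466, adjusted p = 0.931), an alternative chosen after seeing the data. Both genes of the second pair were higher in C10 on their own, and their ratio showed no difference that these libraries could detect.

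Across single cells of a line, 4 of the S100 genes varied together. For S100a4, S100a6, S100a10 and S100a11 the 6 pairwise Pearson correlations of log2(CPM + 1) had a median of 0.688 in C10 (0.595 to 0.791, n = 46 libraries) and 0.594 in SVEC (0.559 to 0.672, n = 48). Over all pairs of genes found in at least 90% of libraries the median was 0.0557 in C10 and 0.164 in SVEC, without matching for level. Among libraries over 100000 counts the 4 genes stood at 0.681 and 0.525. By rank the C10 block held, with Spearman correlations of 0.631 to 0.771, while the SVEC block was looser. There S100a4 gave a Spearman correlation of 0.343 with S100a6 and 0.37 with S100a11, against 0.576 with S100a10, and over 100000 counts the first 2 were 0.224 and 0.257. S100a10 with S100a11 in SVEC was 0.397 by rank and, as a Pearson correlation, 0.346 without the 2 libraries farthest in S100a10. S100a13 followed them less in C10, at 0.273 to 0.455, and in SVEC at -0.134 to 0.297.

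A library-wide measure moved with these 4 genes, and whether it is technical was not tested. All 10 genes' exon lengths lie between 498 nt (S100a4) and 2630 nt (Anxa3), and the 5 S100 transcripts are all under 1000 nt. The share of a library's counts on genes with exons under 1000 nt averaged 12.29% ± 2.781 for C10 and 10.29% ± 3.9 for SVEC (SD, n = 46 and 48). In C10, S100a4 correlated with that share at 0.711, S100a6 at 0.732, S100a10 at 0.608 and S100a11 at 0.727, and in SVEC the values were 0.465, 0.586, 0.421 and 0.437. Over SVEC libraries with more than 100000 counts they were 0.39, 0.495, 0.499 and 0.178, so S100a11 followed the share least there. Summed, the 5 S100 genes correlated with it at 0.828 in C10 (Spearman 0.66) and 0.78 in SVEC (Spearman 0.682), and the 5 annexins at -0.283 and -0.192. Other genes with short exons correlated with each other at a median of 0.202 in C10 and 0.283 in SVEC. After a linear fit on the share was taken out, the median among the 4 S100 genes was 0.442 in C10 and 0.487 in SVEC. The highest S100 sums in C10, 1.138% to 1.429%, were in libraries numbered 3, 6, 7 and 10, with the highest short-exon shares, 17.23% to 19.58%. With log2 total counts the 4 genes correlated at -0.42, -0.307, -0.162 and -0.4 in C10 (Spearman -0.145, -0.24, -0.149 and -0.235). In SVEC those Pearson values ran from -0.274 to 0.0123. The part of library order, depth or transcript length in the covariation was not tested, nor that of length in the higher S100a4, S100a6 and S100a11 levels of C10.

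**Figure D3:**
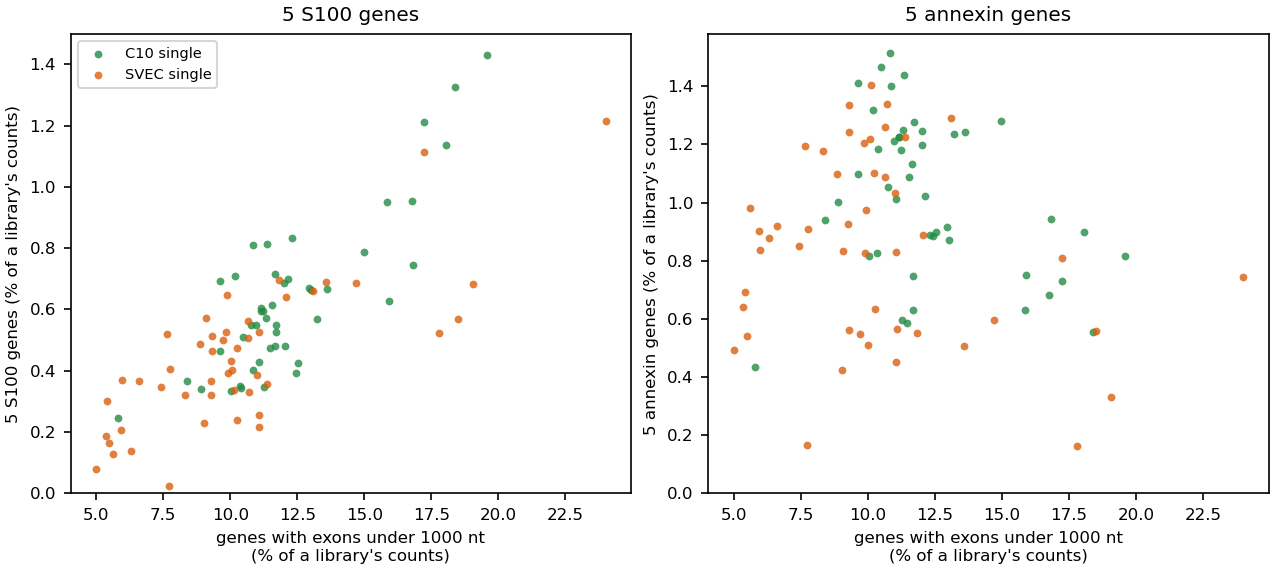
Percent of a library's counts on the 5 S100 genes (left) and the 5 annexin genes (right) against the percent on all genes with exons under 1000 nt, in each single-cell library. The S100 sum rises along the horizontal axis in both lines (Pearson r 0.828 in C10 and 0.78 in SVEC), and the annexin sum does not (-0.283 and -0.192).

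The annexins did not vary as 1 group. Their 10 pairwise correlations had a median of 0.211 in C10 (0.0457 to 0.711) and 0.277 in SVEC (-0.192 to 0.598). Anxa1 and Anxa3 went together in both lines, at 0.711 and 0.541, and at 0.443 and 0.414 without the 2 libraries farthest from the median of Anxa1. Anxa2 and Anxa5 went together at 0.461 and 0.598, and at 0.449 and 0.408 without the 2 farthest libraries. S100 and annexin genes had a median correlation of -0.0422 in C10 and 0.224 in SVEC over 25 pairs. S100a10 and Anxa2, whose proteins form 1 complex, had a correlation of -0.0151 in C10 and 0.155 in SVEC. The correlation of S100a10 with Anxa1 in SVEC, 0.759, fell to -0.129 without the 2 farthest libraries and so rests on them. These values describe libraries that differ in depth. Anxa1 and Anxa3 also moved against the mitochondrial share of counts in C10, at -0.662 and -0.796, or -0.339 and -0.322 without the 2 farthest libraries.

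**Figure D4:**
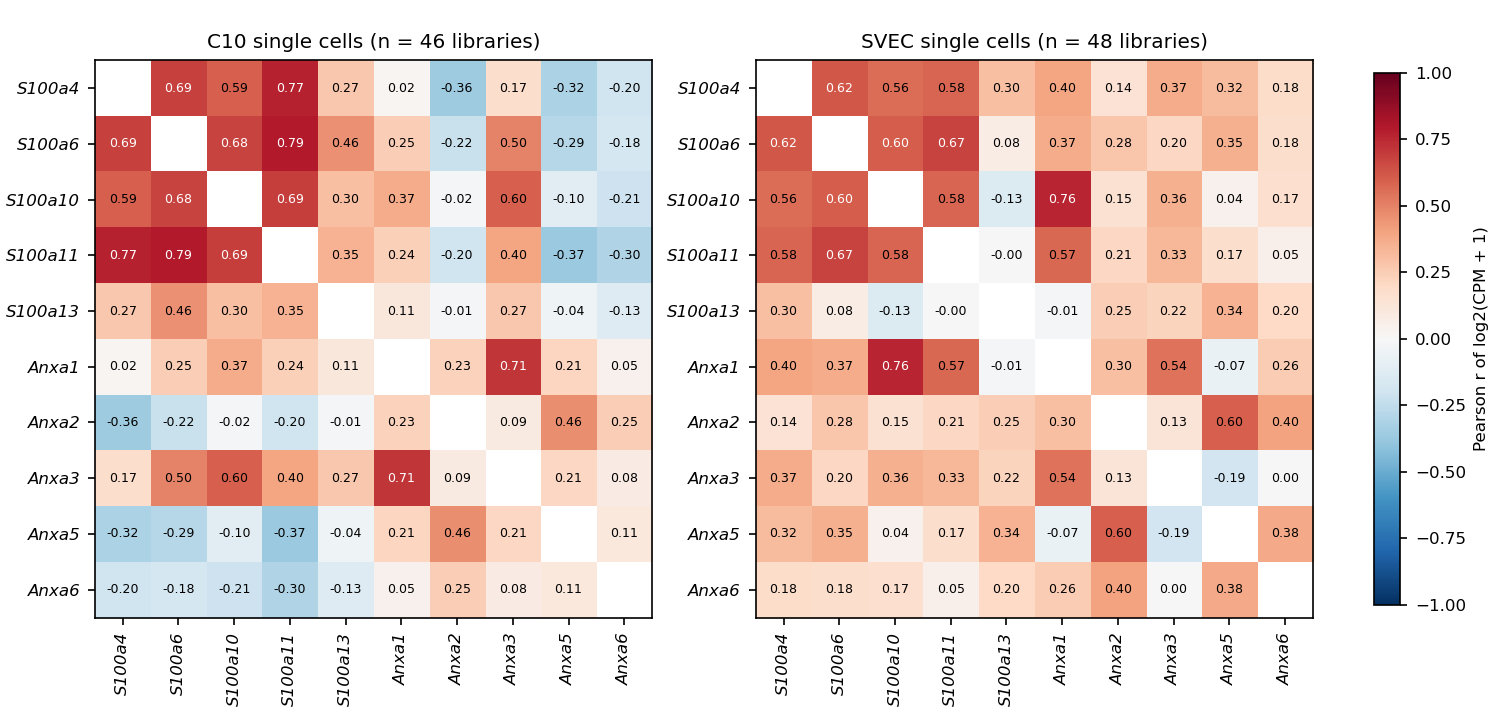
Pearson correlation of log2(CPM + 1) between each pair of the 10 genes over 46 C10 libraries (left) and 48 SVEC libraries (right), with the value in each cell and colour from -1 to 1. The block of S100a4, S100a6, S100a10 and S100a11 is at 0.595 or above in C10 and 0.559 or above in SVEC, while S100a10 with Anxa2 is near 0 in C10.

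The genes whose level most resembled Anxa2 were named by their Pearson correlation over libraries, among genes found in at least 90% of a line's libraries. In C10 they were Lgmn (0.673), a lysosomal protease gene, Col1a1 (0.607), for a collagen chain, Ywhae (0.587), Eno1 (0.575), for a glycolytic enzyme, and Tmsb10 (0.573). Anxa5 ranked 22 and S100a10 834 of 1820 genes. In SVEC they were Bsg (0.696), F11r (0.68), Sumo2 (0.665), Eno1 (0.664) and Pgk1 (0.638), another glycolytic enzyme gene. Here Anxa5 ranked 14 and S100a10 262 of 447. Without the 2 libraries farthest in Anxa2, Bsg fell to 0.258 and Sumo2 to 0.153, while Eno1 stayed at 0.551 in SVEC and 0.482 in C10. Eno1 was the only gene in the first 5 of both lines.

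The input series asked whether measured levels depend on the number of C10 cells. None of the 10 genes was called between 10 cells and 1 cell, between 3 cells and 1 cell, or between 10 and 3 cells (edgeR with TMM). The intervals were wide, as for Anxa6 in 10 cells against 1 at -4.55 to 2.02, so differences of that size could go undetected. Over all 13645 genes tested, 10.7%, 6.35% and 0.0% were called in these comparisons. The 0 for 10 against 3 cells goes with 1346 genes at an unadjusted p under 0.05, and with 35 called by limma and 192 by DESeq2. The comparisons with 1 cell share those 8 libraries, and without replicate 1 of them 336 and 32 genes were called in place of 1456 and 866. S100a6 ran from 0 through 2233 to 3398 CPM in 8 libraries of 1 cell. In 3 cells it ran from 1474 through 2891 to 5205 CPM, and in 10 cells from 1831 through 3460 to 6036 CPM, so the 3 groups overlapped.

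S100a10, Anxa2 and Anxa6 are given in full because they had the outermost fold changes, a choice made after their values were seen. S100a10 held 0, 314, 358.6, 387.1, 462.5, 686.8, 800.2 and 845.3 CPM in single C10 cells of the series, with 579.1 to 1066 CPM (median 857.7) in 3 cells and 688.5 to 1158 CPM (median 986.3) in 10 cells. Its log2 fold change for 10 cells against 1 was 0.66 (SE 0.756, adjusted p = 0.904, edgeR), with an interval of -0.819 to 2.14. Anxa2 held 657.2, 995.9, 1518, 1696, 2422, 2530, 2815 and 9292 CPM in 1 cell, 836.5 to 2008 CPM (median 1335) in 3 cells and 1282 to 1882 CPM (median 1664) in 10 cells. The 1-cell value of 9292 stands apart, and the other 7 cover the range of the larger inputs. Its log2 fold change was -0.76 for 10 cells against 1 (SE 0.481, adjusted p = 0.51) and -0.83 for 3 cells against 1 (SE 0.482, adjusted p = 0.435, both edgeR). With DESeq2 the change for 10 cells against 1 was -1.96 (adjusted p = 0.00325), and with its size factors in edgeR -1.96 (adjusted p = 0.0497). Anxa6 was detected in 4 of 8 libraries of 1 cell, 6 of 6 of 3 cells and 5 of 6 of 10 cells, with a log2 fold change for 10 cells against 1 of -1.27 (SE 1.68, adjusted p = 0.949, edgeR).

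The library that stands apart was replicate 1 of the 1-cell group, with 430798 counts on 538 genes, 64.63% of them mitochondrial, and 95.14% of its reads unaligned. It held counts for 3 of the 10 genes: Anxa2 (4003 counts), S100a4 (2329 counts, 5406 CPM) and Anxa1 (159 counts, 369.1 CPM). The other 7 were at 0. Leaving it out changed no call for the 10 genes, with log2 fold changes for 10 cells against 1 of 0.47 for S100a10, -0.62 for Anxa2 and -1.46 for Anxa6.

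Spread between libraries was smaller at each larger input for 6 of the 10 genes when replicate 1 was left out, given as values without a test. The SD of log2(CPM + 1) for Anxa2 was 0.2245 over 10-cell libraries, 0.4597 over 3-cell libraries and 0.7724 over 1-cell libraries without replicate 1. S100a4 gave 0.2314, 0.364 and 0.7912. S100a6 gave 0.5549, 0.5923 and 0.4615. With replicate 1 kept, the 1-cell SD was 1.143 for Anxa2, 0.9377 for S100a4 and 4.002 for S100a6, which is at 0 in that library, and 7 of the 10 genes had a smaller SD at each larger input. In 10-cell libraries 9 of the 10 genes lay below the median SD of 0.8451 of all genes found in at least 90% of libraries, Anxa6 being the exception at 2.901. In C10 single cells 8 of the 10 lay between 0.5246 (S100a11) and 0.898 (Anxa3), against 1.496 for such genes. In SVEC S100a11 (1.001), S100a6 (1.094) and Anxa2 (1.189) were the steadiest, while S100a4 (3.353) and Anxa6 (3.629) varied most, against 2.0. SVEC libraries were also shallower. Over the 42 SVEC libraries with more than 100000 counts the SD of S100a10 was 0.8563 in place of 1.611 and that of Anxa1 0.9914 in place of 1.897, while S100a4 stood at 2.908 and Anxa6 at 3.439. The median of all genes found in at least 90% of those libraries was 1.738. Most of the 10 genes were abundant, and none of these medians is over genes matched for level.

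**Figure D5:**
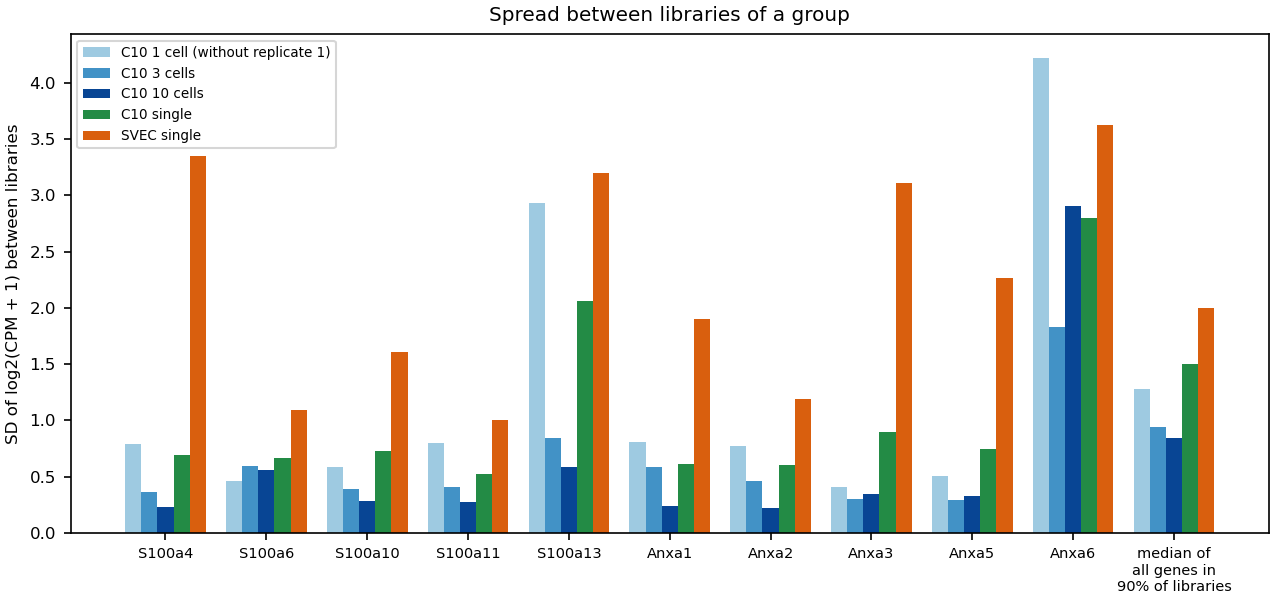
SD of log2(CPM + 1) between libraries of each group, with replicate 1 of the 1-cell group left out, for the 10 genes and, at the right, the median over all genes found in at least 90% of the group's libraries. Anxa2 and S100a4 fall from 1 to 10 cells, S100a13 and Anxa6 stand highest in most groups, and SVEC bars are the tallest plotted for 9 of the 10 genes.

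The rest of both families was sparse. Of 19 other S100 and annexin genes, 6 were frequent enough to test between the lines, and none was called by edgeR with TMM, against 14.4% of all genes higher and 4.48% lower in C10. Calls appeared under other settings. Anxa7 and S100a3 were higher in C10 with limma and with the replicate block, where 30.8% and 30.2% of all genes were. Anxa11 was lower with library totals alone, with genes detected as a covariate and after thinning, where 7.2%, 6.86% and 4.8% of all genes were. Among genes found in at least 90% of a line's libraries 3 relatives were tested and 1, S100a1, was lower in C10, against 6.99% of all such genes. With no filter 12 were tested, of which 2 were higher and 1 lower, against 18.5% and 11.7% of all genes. With TMM the median log2 fold change of the 6 relatives was -0.18, against 0.35 for all genes. Anxa4 was the most abundant of them, with medians of 271.3 CPM in C10 and 375.6 in SVEC, followed by S100a16 (218.1 and 314.4) and S100a1 (84.45 and 143.5). Anxa7 was detected in 69.57% of C10 and 41.67% of SVEC libraries, and Anxa11 in 52.17% and 37.5%. S100a3, S100a5, S100a7a and Anxa9 reached 50% of the libraries of a group only in the input series. S100a8 and S100a9, the paired S100 genes of neutrophils, had no count in any of the single cells or the input series.

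Genes for partners, receptors and membrane repair were counted as a list of 26. Between the lines 21 were tested, 4 were called higher in C10 and 0 higher in SVEC (edgeR), against 14.4% and 4.48% of all genes, with a median log2 fold change of 0.66. With library totals alone 2 were higher and 2 lower, against 9.89% and 7.2% of all genes. Among genes found in at least 90% of a line's libraries 2 were higher and 2 lower of 10 tested, against 19.7% and 6.99%. With limma 11 were higher, against 30.8%. The 3 with the largest changes were Chmp4b (log2 fold change 2.65, SE 0.689, adjusted p = 0.00215, edgeR), a subunit of the ESCRT machinery that seals membrane wounds, Ppfibp1 (1.58, SE 0.477, adjusted p = 0.00976), whose product binds that of S100a4, and Capn2 (1.54, SE 0.509, adjusted p = 0.0205), a calcium-activated protease subunit. Chmp4b was detected in 41 of 46 C10 and 10 of 48 SVEC libraries. Like Tlr4 below, it passed the detection filter only through the group where it was high, here C10. Ppfibp1 and Capn2 missed the threshold with library totals alone (adjusted p = 0.076 and 0.0611, edgeR). Myh9, the myosin partner of S100a4, had medians of 61.77 CPM in C10 and 28.75 in SVEC, and its log2 fold change of 0.55 (SE 0.471, adjusted p = 0.482, edgeR) did not pass the test. In the input series 22 partners were tested. By edgeR 1 was called higher in 10 cells and in 3 cells than in 1 cell, against 10.6% and 6.07% of all genes. It was Tlr4, a receptor for S100 proteins outside the cell. Tlr4 had no count in the 8 libraries of 1 cell and was detected in 4 of 6 of 3 cells and 6 of 6 of 10 cells. It thus passed the detection filter only through the larger inputs, where it was high.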

How the data were processed

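RNA was measured in 116 libraries, and the deposited files hold whole-number read counts per gene symbol in the layout of htseq-count, 1 file per library. FastQC, STAR and HTSeq are named in the submitters' processing notes, without versions. The genome build, annotation, strand setting and treatment of multiply aligned reads are not given in the sources used here. Of all reads, 28.1% were unaligned, 4.71% fell on no gene, 3.98% were ambiguous and 0.576% were of low quality, and these stayed out of the totals. The counter for reads without a unique alignment stood at 0, which does not tell how such reads were treated before counting. No molecular identifiers are described, so reads are not independent molecules, and limits from a count of 0 (3 counts) cover counting error only.

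The 10 genes and the lists of relatives, partners and markers were chosen with earlier results of these data known. Libraries were grouped by their labels, and 2 with fewer than 1000 counts were left out. Genes were tested on the deposited counts with edgeR 4.0.16 (R 4.3.3), TMM scaling and Benjamini-Hochberg adjustment over all genes. Single-cell fits kept genes with a count in 25% or more of either line's libraries. The input series was fitted as 1 model, keeping genes with a count in 50% or more of 1 group. Intervals are the estimate with its 95% normal range from the standard error. Alternatives were library totals alone, DESeq2 size factors in edgeR, limma 3.58.1 on log2(CPM + 1), DESeq2 1.42.0, no filter, a filter of 90%, genes detected as covariate, a replicate block, libraries over 100000 counts, libraries thinned to 130000 counts (45 of C10 and 42 of SVEC), and leaving out 1 library. The gene tests were tested on simulated data. Named genes were the 10, relatives detected in at least 50% of a group, the 3 partners with the largest called changes in each direction, and the 5 genes most like Anxa2 in each line. Exon lengths are the union of exons in GENCODE M21, promoter sequences are from RefSeq, and motifs were searched on both strands.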

Additional observations from a re-analysis of the deposited data

Results flagged for a closer look

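Values of each gene were searched for a library far from the others in the groups of 6 or 8 libraries. A single value stood out: Anxa2 in replicate 1 of the 1-cell C10 group, at 9292 CPM, against 657.2 to 2815 CPM in the other 7 libraries. Its gap to the nearest library was 0.75 of the group's range. Of 30 gene and group combinations examined, 1 was singled out. An assumed rate of 1 in 20 would give about 1.5, but the combinations share libraries and are not independent. That library also stood apart in its reads, as described above.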

How the results depend on the processing

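Between the lines, S100a6, S100a11 and Anxa3 were called in all 10 alternatives, S100a4 in 7, Anxa1 in 6, S100a10 in 5 and Anxa5 (lower in C10) in 2. The 10 genes gave 3 calls with genes detected as covariate and 3 after thinning, against 5 with TMM, and the cause was not tested. No other setting moved that count outside 4 to 6. Signs changed in 7 of 99 cases: S100a13 to 0.21 (limma) and 0.17 (replicate block), Anxa2 to -0.19 (library totals alone), -0.165 (90% filter), -0.0519 (covariate) and -0.22 (thinned), and Anxa6 to -0.0752 (covariate). The difference in the ratio of S100a11 to Anxa1 went from -0.0493 to 0.0118 with a pseudocount of 10 CPM, 0.235 over 100000 counts, 0.13 with the replicate block and 0.129 in libraries with a count of both genes. None of these values was called, and the cause was not tested.

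In the input series, 1 of the 10 genes (Anxa2) was called for 10 cells against 1 cell with DESeq2 and with its size factors in edgeR, and 1 (Anxa2, -1.66, adjusted p = 0.0164) for 3 cells against 1 cell with DESeq2, against 0 with TMM. Signs changed in 28 of 90, 29 of 90 and 20 of 90 cases for 10 against 1, 3 against 1 and 10 against 3 cells. For 10 against 1 cell, S100a10 went to -0.301 with DESeq2 or its size factors and -1.5 with the covariate, Anxa2 to 0.502 with the covariate, and Anxa6 to 1.33 with limma and 4.5 with the replicate block. For 3 against 1 cell, S100a10 (0.58) went to -0.0071, -0.00743 and -0.518 under the same 3 settings. For 10 against 3 cells, S100a4 (0.21) went to -0.19 with both DESeq2 settings. Fitting the groups of 3 and 10 cells alone, chosen after seeing the data, gave 0.2 for S100a4. Same-numbered libraries deviated together (correlation over 0.1) in 1 of 46 single-cell pairs and 0 of 6 in each comparison of the series. The numbers were not taken to pair samples, though 6 pairs are too few for this check to exclude pairing in the series. With the replicate block 6 of the 10 genes were called between the lines, and 2809 genes were higher and 299 lower in C10 against 1337 and 417 without it, and in the input series 0 genes. The closest match of a library was its own number in 2 of 46 single-cell pairs and in 1, 2 and 2 of 6 in the 3 comparisons of the series.

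All genes called between the lines numbered 1754 with TMM, 3195 with limma, 5437 with no filter, 489 with the 90% filter and 1081 after thinning. For 10 against 1 cell 1456 became 455 with DESeq2 size factors, 48 with no filter, 412 with the 90% filter, 336 without 1-cell replicate 1 and 0 with the covariate. For 3 against 1 cell 866 became 197, 65, 281, 32 and 0, and 121 with limma. For 10 against 3 cells 0 became 35 with limma, 192 with DESeq2 and 2 with the covariate. Between the lines, of the other marker lists, 1 of 1 epithelial gene tested was higher in C10 and 0 of 1 alveolar type II. Of 3 endothelial genes 1 (Tek) was higher and 1 (Flt1) lower, and no leukocyte gene was tested. Over all genes 14.4% were higher and 4.48% lower. For 10 cells against 1 cell, 2 of 4 epithelial genes (Epcam and Krt19) and 1 of 2 leukocyte genes (Lyz2) were called higher, against 10.6% of all genes. None of these was called without 1-cell replicate 1. The fit of Krt19 for 3 cells against 1 cell gave a log2 fold change of 0.0 with SE 0.0, as with no count in either group. It thus passed the detection filter only through 10 cells, where it is high. Epcam and Lyz2 had log2 fold changes of 9.82 and 9.28 for 10 cells against 1, and their detection in 1 cell is not given here. S100a13 and Anxa6 were at 0 in 11 and 14 SVEC libraries, of which 7 and 10 had over 100000 counts.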
